A study of Mus musculus with 61 samples.

Results

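The transcripts of 7 cytokine genes were followed through all 61 libraries, namely Il2, Ifng, Il17a, Il17f, Il21, Il22 and Tgfb1. They were chosen by name, as the rows of the count files that carry these symbols, and are 7 of the 24421 genes counted. All 7 were found in every library. Their levels were compared over 10 groups of CD4+ T cells with 30 libraries, 4 groups of splenic T cells with 15 libraries and 3 groups of spleens with 16 libraries.

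These genes encode the signals by which T cells drive and restrain immune responses. IL-2 is the growth factor of activated T cells, and its receptor acts through STAT5. IFN-gamma is the defining product of Th1 cells, cytotoxic T cells and NK cells, IL-17A and IL-17F of Th17 cells, IL-21 of follicular helper and Th17 cells, and IL-22 of Th17 cells and innate lymphoid cells. TGF-beta1 is secreted in a latent form by many cell types and, once activated, restrains T cell growth and takes part in regulatory T cell and Th17 differentiation. STAT5 is known to restrain Il17a and Bcl6 and to drive Il2ra.

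The mice were labelled C57BL/6 and aged 2 months. For the CD4+ T cell experiment, naive CD4+ T cells from pooled lymph nodes and spleens were activated with antibodies to the TCR and CD28, transduced with a retroviral vector that was empty or encoded unmutated STAT5B or its mutants N642H, Y665F and Y665H, cultured with IL-2 and sorted for the GFP of the vector. The hosts were Stat5a/b-null or WT, with 3 libraries for each vector. The null cells came from floxed Stat5a/b mice with CD4-Cre, which acts in CD4+ and CD8+ cells alike, and the genotype entry reads Stat5a/b flox/flox for all 30 libraries, so that null and WT were told apart by the titles. Y665F and Y665H replace the same tyrosine of the SH2 domain, and N642H is a known activating mutation of the same domain. Splenic T cells came from WT mice and from knock-in mice carrying STAT5B-Y665H or STAT5B-Y665F, made by CRISPR/Cas9 and base editing in C57BL/6N mice per the study's methods. They were cultured with IL-2 and IL-7 (4 libraries of each genotype), and Y665F cells were also taken without interleukin (3 libraries). The study's methods describe no culture of splenic T cells for RNA without interleukin. The spleens were from WT (4 libraries), STAT5B-Y665H (5) and STAT5B-Y665F (7) mice, titled splenocytes and labelled spleen. The extraction text of the labels names frozen mammary tissue, whereas the summed level of 5 T cell markers was at least 194 CPM (read counts scaled to library size) in each of the spleens.

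The genes lie in 3 neighbourhoods and 1 single site of the mouse genome (mm10, gene models of GENCODE vM21). Il2 (chromosome 3, 37120523 to 37125959, minus strand) and Il21 (37222759 to 37232636, minus strand) are 96.8 kb apart. Il17a (chromosome 1, 20730905 to 20734496, plus strand) and Il17f (20777146 to 20790617, minus strand) lie close together, and Il22 (chromosome 10, 118204942 to 118210047, plus strand) and Ifng (118441046 to 118445892, plus strand) are 231.0 kb apart. Tgfb1 is on chromosome 7 (25687002 to 25705077, plus strand). Il22 has a near-identical copy beside it, Iltifb, so that the split of its reads between both is uncertain.

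Promoter bases of the 4 genes on which the results turn are shown from RefSeq (GRCm38.p6, the assembly of mm10), each 5′ to 3′ on the strand of the gene and ending 1 base before the annotated start. Capitals mark a STAT element of the GAS type (TTCNNNGAA), a ROR element (AGGTCA) or a TATA box (TATAAA). Ifng is given with 250 bases (chr10:118440796-118441045, plus strand) because its GAS match lies 249 to 241 bases before the start, and the others with 100 bases (Il17f chr1:20784271-20784370, minus strand; Il21 chr3:37232637-37232736, minus strand; Tgfb1 chr7:25686902-25687001, plus strand).
Ifng: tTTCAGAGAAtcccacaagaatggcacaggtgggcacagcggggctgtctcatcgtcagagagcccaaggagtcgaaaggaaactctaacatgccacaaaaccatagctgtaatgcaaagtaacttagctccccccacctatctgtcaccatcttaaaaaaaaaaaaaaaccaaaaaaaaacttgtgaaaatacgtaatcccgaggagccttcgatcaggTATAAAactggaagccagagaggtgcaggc
Il17f: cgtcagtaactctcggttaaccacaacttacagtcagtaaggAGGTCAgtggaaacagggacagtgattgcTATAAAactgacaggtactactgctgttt
Il21: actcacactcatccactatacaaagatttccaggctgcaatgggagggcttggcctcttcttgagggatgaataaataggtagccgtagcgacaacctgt
Tgfb1: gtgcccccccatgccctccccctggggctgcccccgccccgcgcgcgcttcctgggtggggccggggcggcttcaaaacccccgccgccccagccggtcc
The start of Il17f in RefSeq lies within its longer GENCODE model. All 7 genes were matched in RefSeq. In the 250 bases before the start, searched on both strands, GAS letters stood in 1 of the 7 genes (Ifng) and in 7.02% of all 32851 promoters. TATAAA stood in 5 of 7, against 12.4% of all. In Il2, Ifng, Il17a and Il17f it lay between 31 and 24 bases before the start. In Il22 it lay 170 to 165 bases before the start, away from that place. AGGTCA, the half-site that ROR factors read, stood in Il17a and Il17f, against 14.0% of all, and the AP-1 letters TGANTCA in Il17a alone, against 6.75%. The T-box letters TCACACC stood in 0 of 7 and in 3.33% of all. Tgfb1 differed in base composition, with 82% GC in the 100 bases shown against 44% for Il17f and 48% for Il21. These matches describe letters only.

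Reads counted on genes came to 18825994 to 49850689 per library in CD4+ T cells, 2017012 to 27394249 in splenic T cells and 24203179 to 43330536 in spleens, and no 2 libraries held identical counts. Stat5b, the gene targeted or supplied, was at 2.78 to 9.49 CPM (on TMM-scaled library sizes) in null cells with the empty vector, 187 to 209 CPM in WT cells with it and 186 to 365 CPM in null cells with a STAT5B vector. The library of Y665F splenic T cells with interleukins numbered 3 stood apart, with summed markers of B cells at 428 CPM and of erythroid cells at 837 CPM, and its results for the cytokines and the calls of the gene lists are given with and without it. Replicate 4 of that group came next among splenic T cells, with B cell markers at 120 CPM and erythroid markers at 67.0 CPM. Its T cell markers were at 718 CPM. It was left out only where each library was left out in turn. In bulk RNA, fewer cells of a type and less RNA per cell cannot be told apart. The labels do not say that replicates came from separate mice or cultures, whereas the legends of the study speak of independent biological replicates. Where they did not, p-values measure only the spread between these libraries.

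Tgfb1 was by far the most abundant of the 7 in CD4+ T cells, and Il22 and Il17a were barely counted. Per length, group means of Tgfb1 were 51.9 to 82.6 RPKM (reads per kilobase of exon, scaled to sequencing depth), followed by Il2 with 5.11 to 12.8 RPKM. Ifng reached 0.151 to 3.52 RPKM, Il17f 0.189 to 1.77 RPKM and Il21 0.0359 to 0.333 RPKM. In splenic T cells the order of the leading pair depended on the group. Ifng spanned 1.46 to 13.7 RPKM there and Tgfb1 4.10 to 6.36 RPKM. In spleens Tgfb1 led again with 11.4 to 16 RPKM, ahead of Ifng with 0.838 to 1.18 RPKM. Il2 with 0.241 to 0.355 RPKM and Il21 with 0.149 to 0.325 RPKM followed, over overlapping ranges.

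Loss of Stat5a/b went with more Ifng and Il17f transcript in activated CD4+ T cells. With the empty vector, Ifng stood at 0.770, 2.23 and 3.24 CPM in the 3 null libraries and at 0.258, 0.141 and 0.189 CPM in the 3 WT libraries. The lowest null library was above the highest WT library. Ifng was 10.5-fold higher in null cells, a log2 difference of 3.40 ± 0.74 (SE; 95% interval 1.88 to 4.91; adjusted p = 0.00218, from the quasi-likelihood test of edgeR after Benjamini-Hochberg correction over all genes, as for all adjusted p-values here). Counts were small, 28 to 94 reads per null and 6 to 9 per WT library. Il17f was at 1.62, 2.14 and 1.93 CPM in null and at 0.572, 0.446 and 0.126 CPM in WT libraries, 5.04-fold higher (log2 2.33 ± 0.60, adjusted p = 0.00813), again without overlap. Genes were called at an adjusted p under 0.05 with a log2 difference beyond 1, and 2 of the 7 cytokines were called, against 4.68% of all genes tested in this comparison.

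The other members of the group did not pass the call in that comparison. Il21 was at 0.330, 0.782 and 1.31 CPM in null and at 0.258, 0.141 and 0.168 CPM in WT cells, and the groups did not overlap (log2 2.08 ± 0.98, adjusted p = 0.172). Il2 was at 10.8, 10.2 and 21.5 CPM in null and at 4.44, 3.33 and 9.78 CPM in WT cells, also without overlap (log2 1.27 ± 0.68, adjusted p = 0.242, interval -0.13 to 2.67). In a fit of these 6 libraries alone both passed, with an adjusted p of 0.0426 for Il21 and 0.047 for Il2. Tgfb1 pointed the other way, with 184, 305 and 296 CPM in null and 288, 463 and 397 CPM in WT cells. Its log2 difference of -0.55 ± 0.19 passed the p threshold (adjusted p = 0.0481) but lay under the fold minimum, and the groups overlapped. Il17a was counted 4, 38 and 6 times in the null and 3, 7 and 0 times in the WT libraries. The median log2 difference of the 7 was 2.08, against -0.12 over all genes tested.

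Markers of other cells were read beside this result. The summed level of 4 NK cell markers was 110 to 270 CPM in null and 13.9 to 14.9 CPM in WT cells with the empty vector. Nearly all of it was Nkg7, a granule protein gene of cytotoxic lymphocytes, at 167 ± 88.9 CPM (SD, n = 3) against 14.3 ± 0.412 CPM, while the defining NK receptors were near 0. Ncr1 had a mean of 0.0690 CPM in null and 0.0417 CPM in WT cells, Klrb1c 0.108 and 0.160 CPM, and Klra8 was at 0 in both. Both CD8 markers summed to 15.1 to 20.3 CPM in null and 6.29 to 7.62 CPM in WT cells.

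**Figure D1:**
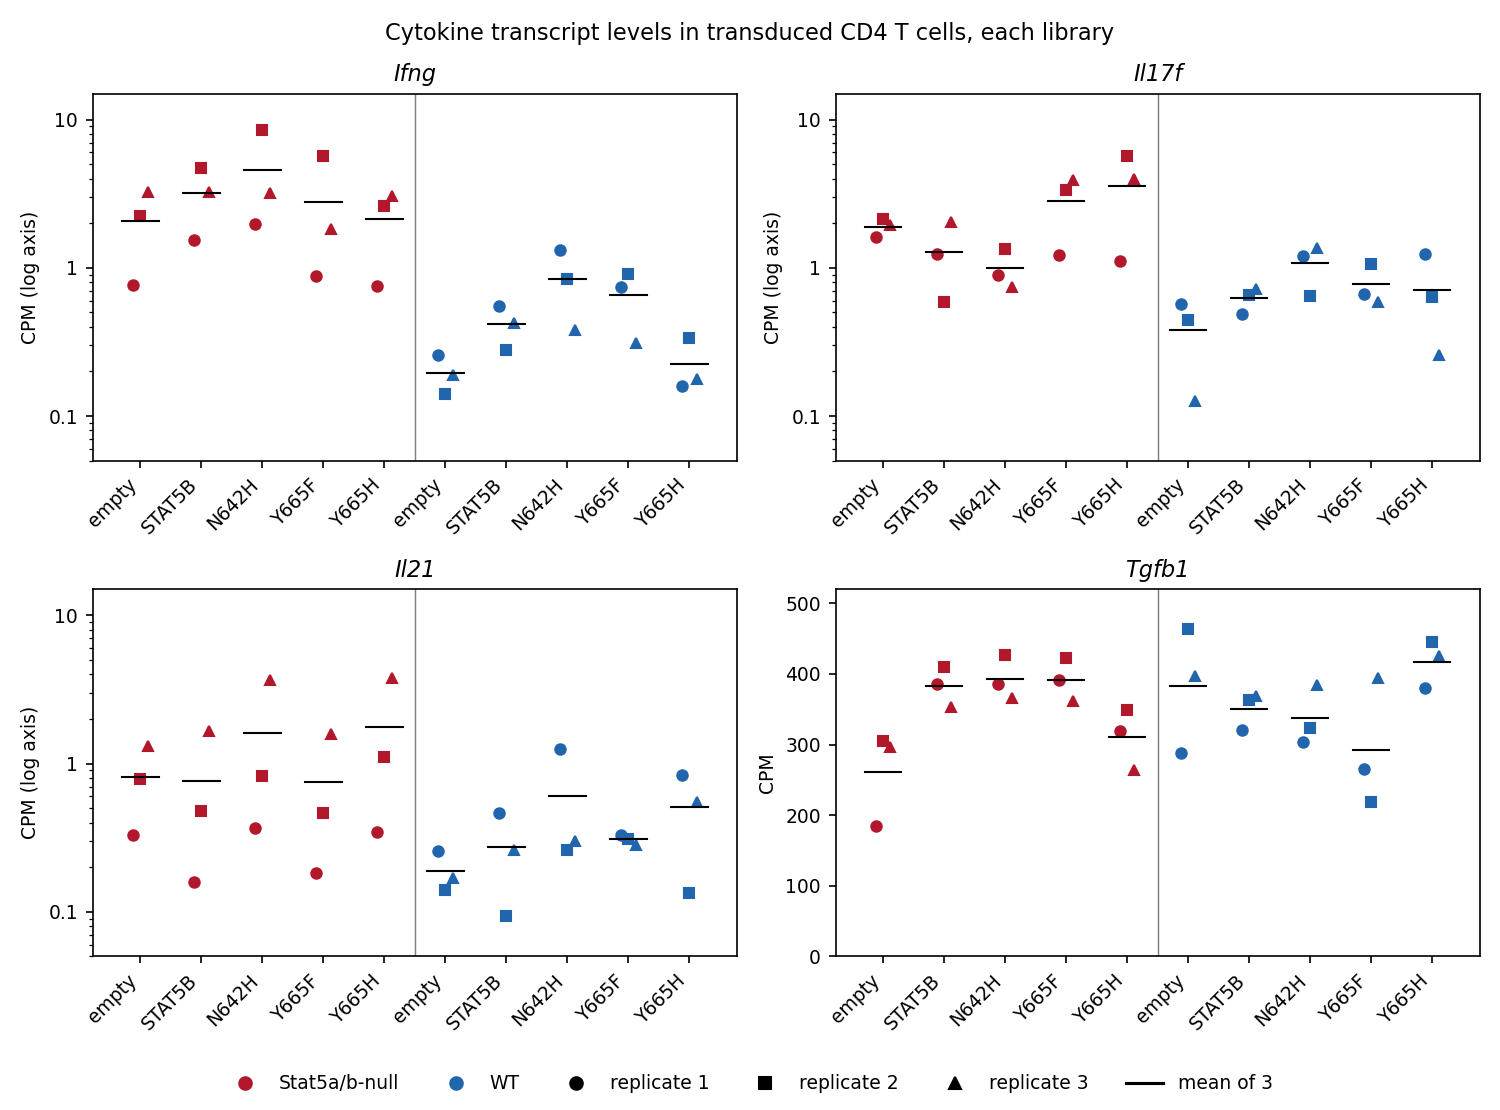
Levels of Ifng, Il17f, Il21 (CPM, log axis) and Tgfb1 (CPM, linear axis from 0) in the 30 CD4+ T cell libraries, by vector, with null cells in red and WT cells in blue; symbols mark replicate numbers and bars the mean of 3. With the empty vector every null library lay above every WT library for Ifng, Il17f and Il21, and Tgfb1 ranged from 184 to 463 CPM over both hosts.

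Returning STAT5B alone to null cells did not bring Ifng to the WT level. Stat5a, which the vector does not supply, was at 1.95, 2.43 and 5.39 CPM in these cells. In WT cells with the empty vector Stat5a was at 137, 165 and 172 CPM. Ifng was at 1.55, 4.74 and 3.25 CPM in null cells with STAT5B, each above every WT library with the empty vector (log2 4.02 ± 0.74, 16.2-fold, adjusted p = 0.00349). It was the 1 cytokine called, against 0.778% of all genes, and without the second WT library the value was 3.83 with an adjusted p of 0.0548. Il17f was at 1.24, 0.587 and 2.02 CPM and did not pass (log2 1.74 ± 0.60, adjusted p = 0.223). Tgfb1, at 386, 410 and 354 CPM, had a log2 difference of 0.00 ± 0.19 from WT cells, with an interval of -0.38 to 0.38. Both comparisons against WT cells share the same WT libraries.

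Within null cells, none of the 7 cytokines was called for any vector without the replicate block. With it, 1 was called for N642H against the empty vector (Ifng), 1 for Y665H against STAT5B and 1 for Y665F against Y665H (Il21 in both). The shares of all genes called with the block, by DESeq2 or under other alternatives are not given here or below. Counts of cytokines under them thus have no background to be read against. Against the empty vector, 0 of 7 were called with STAT5B, N642H, Y665F and Y665H by edgeR, where 0.477%, 2.88%, 2.37% and 0.0249% of all genes were called. At an unadjusted p under 0.05 there were 1, 1, 1 and 0 of them, beside 2973, 4931, 4449 and 1021 of all 20113 genes tested. DESeq2 called 0 of the 7 in each. These comparisons share the libraries with the empty vector. Against STAT5B, 0 of 7 were called with N642H, Y665F and Y665H (background 0.0696%, 0.00994% and 0.149%). At an unadjusted p under 0.05 there were 0, 1 and 1, beside 1221, 1000 and 2126 of all genes. Y665F against Y665H gave 0 of 7 (1.80%), with 0 at an unadjusted p under 0.05 beside 4356 of all genes. DESeq2 called 0 in all of these comparisons too.

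The spread of Ifng between replicates was wide in null cells, so that no vector separated from the empty one. N642H gave 1.98, 8.47 and 3.21 CPM, Y665F 0.880, 5.68 and 1.84 CPM, and Y665H 0.760, 2.63 and 3.05 CPM, all overlapping the empty vector. The log2 difference from the empty vector was 0.61 ± 0.68 for STAT5B and 1.12 ± 0.68 for N642H, and 0.43 ± 0.68 and 0.06 ± 0.69 for Y665F and Y665H. Same-numbered libraries deviated together, and with the replicate number as a block Ifng was called with N642H (log2 1.06, adjusted p = 0.0239). Without the block the interval for N642H ran from -0.30 to 2.54, and leaving out 1 library in turn gave 0.26 to 1.59.

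Tgfb1 had overlapping levels with STAT5B, N642H and Y665F in null cells. It was at 386, 428 and 366 CPM with N642H and at 392, 423 and 362 CPM with Y665F, above all 3 libraries with the empty vector. The log2 difference was 0.55 with N642H (adjusted p = 0.0323), 0.55 with Y665F (adjusted p = 0.036) and 0.54 with STAT5B (adjusted p = 0.0992), all under the fold minimum. With Y665H Tgfb1 was at 319, 350 and 264 CPM, overlapping the empty vector (log2 0.26, adjusted p = 0.896).

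Il17f had its highest values in null cells with the Y665 mutants. It was at 1.11, 5.69 and 3.95 CPM with Y665H and at 1.21, 3.34 and 3.92 CPM with Y665F, against 0.896, 1.34 and 0.741 CPM with N642H. Replicate 1 was low with both Y665 mutants. Against STAT5B the log2 difference was 1.54 ± 0.53 with Y665H (adjusted p = 0.277) and 1.15 with Y665F (adjusted p = 0.986), and against the empty vector the values with N642H were lower in 3 of 3 libraries (log2 -0.93). Il21 went with the replicate number more than with the vector, at 0.345, 1.11 and 3.80 CPM with Y665H, 0.369, 0.819 and 3.66 CPM with N642H and 0.158, 0.478 and 1.67 CPM with STAT5B. The log2 difference of Il21 between Y665H and STAT5B was 1.28 (adjusted p = 0.667; with the block 1.20, adjusted p = 0.0376), and between Y665F and Y665H -1.33 (adjusted p = 0.449; with the block -1.22, adjusted p = 0.0121). Leaving out 1 library in turn moved the first from 0.02 to 2.46 and the second from -2.44 to -0.07.

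In WT cells, Ifng was low with every vector, and N642H and Y665F had the highest values. N642H gave 1.31, 0.846 and 0.383 CPM, from 24, 29 and 19 reads, and Y665F 0.747, 0.906 and 0.310 CPM, from 18, 35 and 11 reads. STAT5B gave 0.556, 0.280 and 0.422 CPM and Y665H 0.160, 0.334 and 0.178 CPM. Every library with N642H, Y665F or STAT5B lay above every library with the empty vector, and Y665H overlapped it. All 4 vectors are set against the same 3 libraries, of 6 to 9 reads. The share of all genes that separate in this way was not counted here or in the other comparisons. The log2 difference was 2.08 ± 0.56 with N642H (interval 0.90 to 3.26, adjusted p = 0.0849), which became a call with the replicate block (1.98, adjusted p = 0.0117), in DESeq2 (2.08, adjusted p = 0.0166) and without the third N642H library (2.45, adjusted p = 0.0278). It was 1.73 ± 0.55 with Y665F (adjusted p = 0.151), a call with the block (1.67, adjusted p = 0.0307) and without the third Y665F library (2.06, adjusted p = 0.0379). For each of both mutants that was the 1 of 6 refits without 1 library that became a call. Adjusted p-values over the 6 ran up to 0.447 with N642H and 0.608 with Y665F. With STAT5B the log2 difference was 1.11 ± 0.55 and with Y665H 0.19 ± 0.58, with an interval of -1.05 to 1.43. The Y665 mutants, which differ only in the residue that replaces the tyrosine, differed by 1.54 ± 0.56 (Y665F above Y665H, unadjusted p under 0.05, adjusted p = 0.311).

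The other cytokines of WT cells gave no call either without the block. Il17f was at 1.20, 0.642 and 1.37 CPM with N642H, above all 3 libraries with the empty vector (log2 1.52 ± 0.57, adjusted p = 0.288; with the block 1.64, adjusted p = 0.0418). Il21 with N642H was at 1.26, 0.262 and 0.302 CPM, all above the empty vector but 2 of them only just (log2 1.62, adjusted p = 0.455). Tgfb1 was at 265, 219 and 395 CPM with Y665F and at 380, 445 and 425 CPM with Y665H, with log2 differences from the empty vector of -0.37 and 0.13 and overlapping libraries. In edgeR's test 0 of 7 were called against the empty vector with STAT5B (0.00975% of all genes called), N642H (0.985%), Y665F (0.707%) and Y665H (0.00488%). At an unadjusted p under 0.05 there were 1, 3, 1 and 0, beside 555, 2164, 2932 and 163 of all 20509 genes tested. DESeq2 called 0, 1, 0 and 0 of the 7. Against STAT5B, 0 of 7 were called with N642H (0.00488%), Y665F (0%) and Y665H (0.00488%), with 0 in DESeq2. None was at an unadjusted p under 0.05, beside 526, 632 and 327 of all genes. Y665F against Y665H gave 0 of 7 (0.180%) and 0 in DESeq2. At an unadjusted p under 0.05 there were 2, Ifng and Tgfb1 (log2 -0.49), beside 2194 of all genes.

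**Figure D2:**
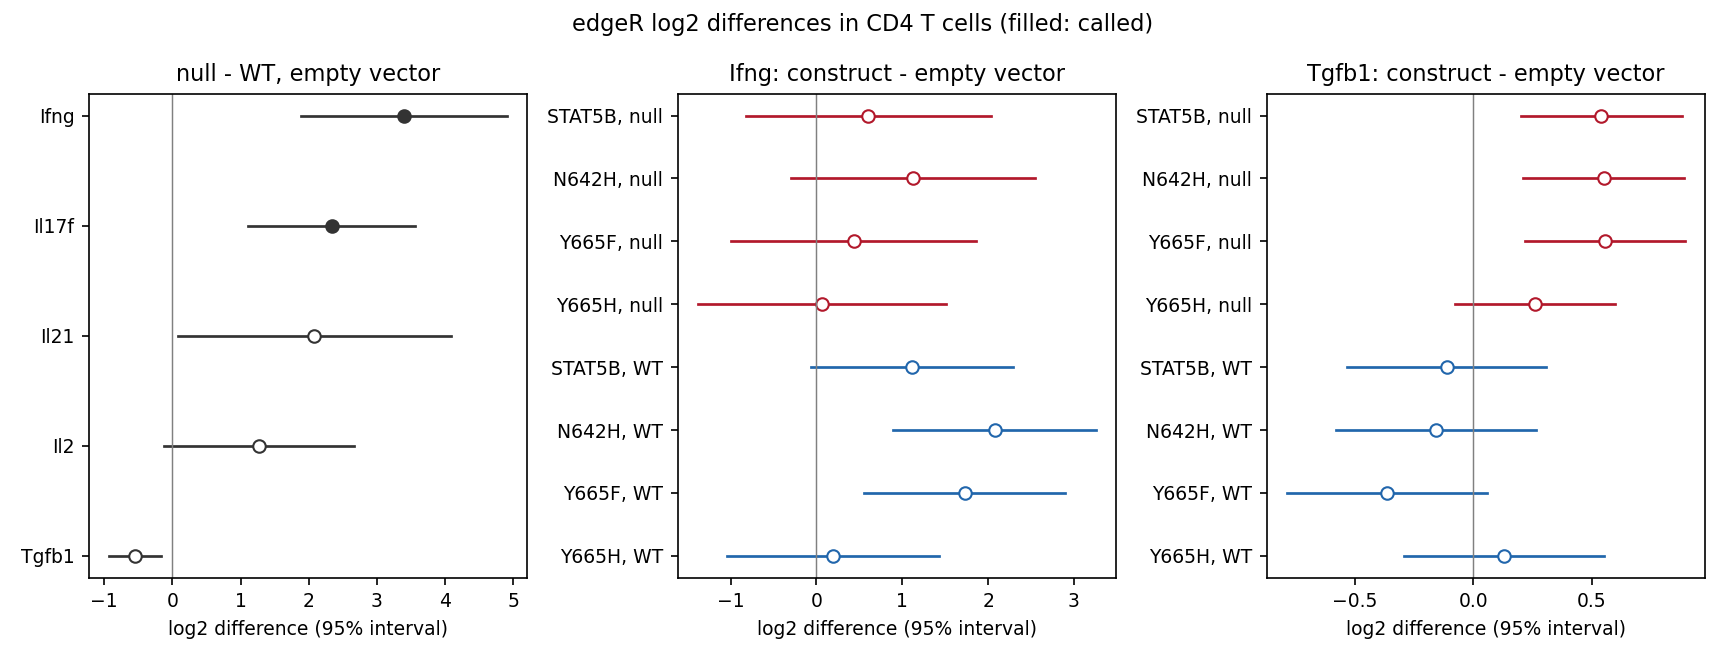
Log2 differences from edgeR with 95% intervals (x axes) for 5 cytokines between null and WT cells with the empty vector, and for Ifng and Tgfb1 between each vector and the empty vector; filled points are called, red is null and blue WT. Only Ifng (3.40) and Il17f (2.33) between null and WT are filled, and the intervals of Ifng with N642H and Y665F in WT cells lie above 0.

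Whether a vector acted differently in null and WT cells was tested as an interaction. By edgeR 0 of 7 cytokines passed for STAT5B (0.10% of all genes called), N642H (0.341%), Y665F (0.419%) and Y665H (0.00455%), and 0 in DESeq2. At an unadjusted p under 0.05 there were 1, 2, 1 and 0, beside 1079, 2255, 2049 and 917 of all 21975 genes tested. Il17f with N642H came nearest among the IL-17 genes. Every null library with N642H was below every null library with the empty vector, and every WT library with N642H above every WT one (interaction log2 -2.42 ± 0.82, unadjusted p under 0.05, adjusted p = 0.276). For Tgfb1 the interaction was 0.97 ± 0.26 with Y665F (adjusted p = 0.129), 0.77 with N642H (adjusted p = 0.288) and 0.68 with STAT5B (adjusted p = 0.941). That of Y665F was 1.14 (adjusted p = 0.0424) without the first WT library with the empty vector and 1.25 (adjusted p = 0.0121) without the third WT library with Y665F.

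Il2 went with the replicate number more than with the vector in CD4+ T cells. In null cells, replicate 3 stood at 21.5 CPM with the empty vector, 24.1 with STAT5B, 22.3 with N642H and 24.7 with Y665F, but at 6.53 CPM with Y665H. Replicate 2 stood at 10.2, 5.39, 6.15, 6.79 and 10.1 CPM in the same order, and replicate 1 at 10.8, 8.73, 11.9, 12.3 and 9.37 CPM. In WT cells, replicate 3 stood at 9.78, 11.7, 17.6, 13.4 and 10.9 CPM, whereas replicates 1 and 2 lay between 2.60 and 5.40 CPM with all vectors. Replicate 3 was thus the highest in 9 of 10 groups, the exception being null cells with Y665H, and replicate 2 the lowest in 8 of 10. What the replicate numbers stand for was not given. In null cells the remaining Stat5a rose with the replicate number with every vector. It was at 1.70, 3.13 and 6.66 CPM with the empty vector and highest, at 14.9 CPM, in replicate 3 with Y665H. The part of this in the levels of Il2 was not tested. The log2 differences from the empty vector were -0.17, -0.14, 0.00 and -0.69 ± 0.52 with STAT5B, N642H, Y665F and Y665H in null cells (adjusted p = 0.906 for Y665H, whose 3 libraries all lay below those with the empty vector), and 0.10, 0.49, 0.38 and 0.10 in WT cells.

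**Figure D3:**
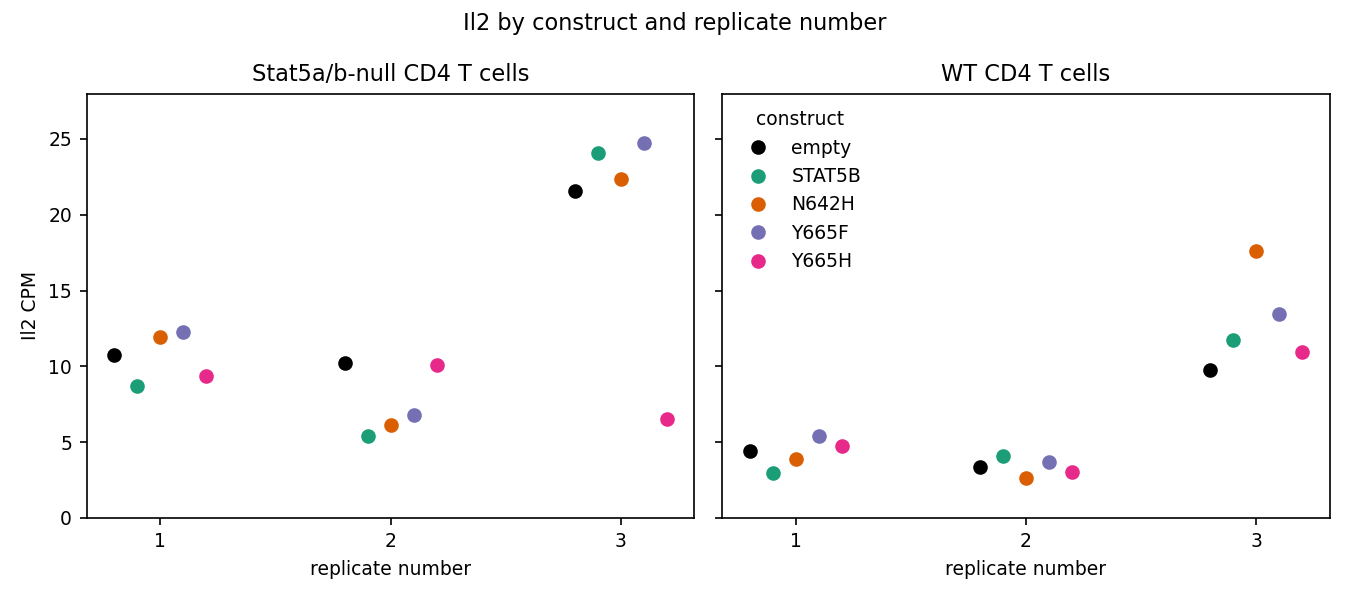
Il2 level (CPM, y axis from 0) by replicate number (x axis, no order implied) and vector (colour) in null cells on the left and WT cells on the right; each point is 1 library, shifted sideways for legibility. Replicate 3 is the highest in 9 of 10 groups, and null cells with Y665H, at 6.53 CPM, are the exception.

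Other members shared such a split in part. Il21 was highest in replicate 3 in 5 of 5 null groups and in replicate 1 in 5 of 5 WT groups. Tgfb1 was highest in replicate 2 in 5 of 5 null groups, and Ifng in replicate 2 in 3 of 5. Il22 was highest in replicate 3 in 8 of 10 groups, though it never passed 7 reads in a library.

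The counts of Il17a in CD4+ T cells came from a few libraries. It was at 0 reads in 15 of 30 libraries, and a library at 0 allows up to 3 reads (counting error only). In null cells, the replicates gave 0, 60 and 0 reads with N642H, 4, 124 and 0 reads with Y665H, 3, 27 and 61 reads with Y665F and 0, 0 and 11 reads with STAT5B. In WT cells, 10 reads in all were counted with the empty vector and at most 2 in any library with another vector. Il22 was at 0 in 9 of 30 libraries.

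Receptors and regulators of these cytokines were followed as lists of 59 genes in 6 groups, chosen by known function. Between null and WT cells with the empty vector, 16 of the 59 were called, 27.1% beside 4.68% of all genes tested. Among 16 transcriptional regulators, 7 were called higher and 0 lower, with a list median of 0.88 (log2) against -0.12 over all genes. They included Tbx21 (T-bet, the Th1 factor that drives Ifng; log2 3.79, adjusted p = 0.000307), Rora (which takes part in driving IL-17 genes; 1.63, adjusted p = 6.24e-05) and Maf (4.07, adjusted p = 1.36e-05), which drives Il21. Ahr and Bcl6 were among them too. Of 14 receptor genes, 2 were called lower, both subunits of the IL-2 receptor, Il2ra (log2 -3.08, adjusted p = 1.44e-09) and Il2rb (-1.27, adjusted p = 0.00184). Of 6 genes of TGF-beta processing, Lrrc32 (GARP, which holds latent TGF-beta on the cell surface) was called lower (log2 -4.83) and Itgb8 (a subunit of an activating integrin) higher (2.33). Of 9 genes of the IFN-gamma response, Irf1 (2.20) and Irgm1 (1.35) were higher and Socs1, the feedback inhibitor, lower (-3.17). None of 6 other family members was called.

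With STAT5B in null cells, Il2ra, Socs1 and Lrrc32 were called higher and Bcl6 lower, and Tbx21 was not called. Of 58 list genes tested against the empty vector there, 4 were called with STAT5B, 7 with N642H and 6 with Y665F. These are 6.9%, 12.1% and 10.3%, beside 0.477%, 2.88% and 2.37% of all genes. Against the empty vector, Il2ra was higher with STAT5B (log2 2.12, adjusted p = 2.52e-05), N642H (2.95) and Y665F (2.82). Lrrc32 was higher by 2.09, 3.12 and 3.01, and Bcl6 lower (-1.51, -2.39 and -2.16). Tbx21 was not called with any of them, at 0.13 with STAT5B and -0.01 with Y665F. With Y665H none of the 59 genes was called against the empty vector, where 5 of 20113 genes were called in all. In WT cells Furin, the protease that cuts the TGF-beta precursor, was called higher with N642H (log2 1.20, adjusted p = 0.0223). It was 1 of 58 list genes tested, 1.72% beside 0.985% of all genes, and the other 3 vectors gave no call in the lists.

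Over the 30 CD4+ T cell libraries, which share hosts, vectors and replicate numbers, the levels of 11459 genes were compared with those of the members by Pearson's r on log2 CPM. Ifng went most closely with Gm4951 (r = 0.906), Tbx21 (0.869) and Itgb8 (0.818). Il2 went with Cox6b2 (0.904), Axl (0.887) and Cyp4f16 (0.873). Il17f went with Upf3b (0.783), Kit (0.764) and Rgs2 (0.756), and Tgfb1 with Lmf2 (0.931), 2310022A10Rik (0.900) and Dctn1 (0.888). Among the members, the neighbours Il17a and Il17f had an r of 0.719 and Il21 and Il22 of 0.697, whereas Ifng and Il2 had 0.272. Low counts lie behind Il17a and Il22.

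Splenic T cells with STAT5B-Y665F had the highest Ifng of all groups of that experiment. With IL-2 and IL-7, Ifng was at 18.3, 12.9, 14.9 and 25.1 CPM in Y665F cells, at 3.49, 4.77, 4.78 and 1.71 CPM in WT cells and at 0.571, 3.40, 1.95 and 1.64 CPM in Y665H cells. Y665F cells without interleukin were at 4.93, 4.43 and 2.75 CPM. Every Y665F library with interleukins lay above every other library, and Y665H overlapped WT. Y665F was 4.81-fold above WT (log2 2.26 ± 0.36, interval 1.51 to 3.02, adjusted p = 0.00322) and 9.90-fold above Y665H (log2 3.31 ± 0.42, adjusted p = 5.65e-05). Y665F cells with interleukins were 4.45-fold above those without (log2 2.15 ± 0.41, adjusted p = 0.00194), for which no WT or Y665H library without interleukin was analysed here. The study describes a culture for the cells with interleukins, and unstimulated T cells as sequenced right after isolation. Interleukins and culture can thus not be told apart in this comparison. Y665H against WT did not pass (log2 -1.04 ± 0.42, adjusted p = 0.49, interval -1.91 to -0.18, and 2 to 28 reads per library in Y665H).

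Ifng was the 1 cytokine called in each of the 3 comparisons of Y665F, against 1.53% of all genes for Y665F against WT, 4.78% for Y665F against Y665H and 2.97% with against without interleukins. For Y665H against WT, 0 of 7 were called by edgeR (0.0717% of all genes) and 0 by DESeq2. At an unadjusted p under 0.05 there was 1, beside 1981 of all 22313 genes tested. All 3 comparisons of Y665F share its libraries with interleukins. Without replicate 3 of Y665F, which stood apart, the log2 differences of Ifng were 2.33 (adjusted p = 0.00309) against WT, 3.38 (adjusted p = 4.93e-05) against Y665H and 2.22 (adjusted p = 0.00125) against no interleukin.

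Markers of NK cells, which also make IFN-gamma, were present in these libraries. With interleukins their ranges overlapped in WT and Y665F cells. Y665F cells with interleukins lay above Y665H cells and above Y665F cells without interleukin. The summed level of the 4 markers was 71.6 to 157 CPM in WT, 48.3 to 57.8 in Y665H, 74.7 to 159 in Y665F and 23.4 to 31.8 CPM in Y665F cells without interleukin. Ncr1 had means of 21.0, 8.38, 24.3 and 4.77 CPM and Klrb1c of 25.8, 7.09, 30.2 and 8.34 CPM in the same order, with Klra8 at 0 throughout. Both CD8 markers summed to 817 to 1149 CPM in WT, 629 to 815 in Y665H, 512 to 1198 in Y665F with interleukins and 429 to 649 CPM without. T cell markers summed to 1210 to 1818 CPM in WT and 439 to 1353 CPM in Y665F cells with interleukins, and Cd4 alone was at 302 to 372 CPM in WT, 193 to 365 in Y665H, 79.0 to 218 in Y665F with interleukins and 154 to 326 CPM without, with no overlap between WT and Y665F with interleukins. Neutrophil markers summed to 3.11 to 10.2 CPM in WT and 49.7 to 188 CPM in Y665F cells with interleukins. The part of these cells in the differences was not tested.

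**Figure D4:**
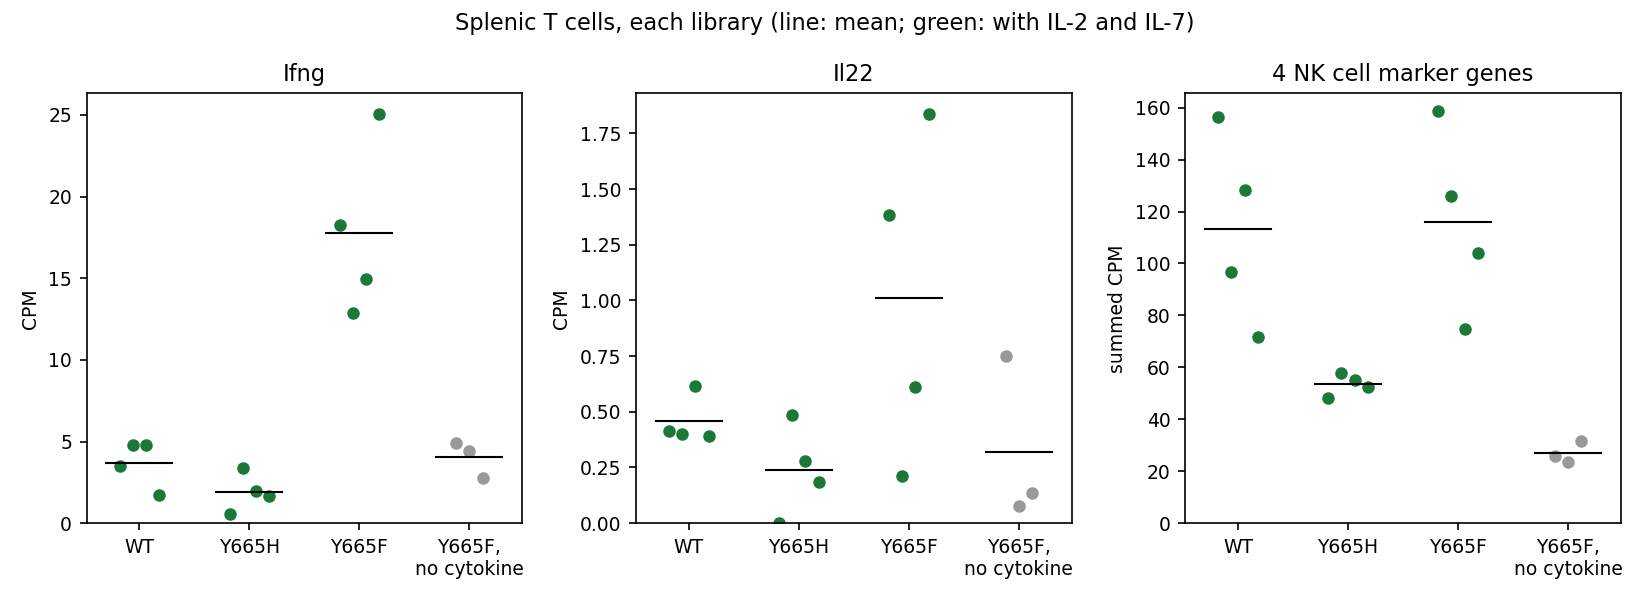
Levels of Ifng and Il22 (CPM) and the summed level of 4 NK cell markers (CPM) in the 15 splenic T cell libraries; each point is 1 library, bars are means, green is with IL-2 and IL-7 and grey without. Ifng in Y665F cells with interleukins lies between 12.9 and 25.1 CPM, above all other libraries. Their NK markers overlap those of WT cells and lie above those of Y665H cells and of Y665F cells without interleukin.

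No other cytokine was called in splenic T cells. Tgfb1 was at 30.2, 27.5, 43.7 and 26.9 CPM in WT, 29.98, 20.9, 25.3 and 27.0 CPM in Y665H and 28.5, 30.9, 17.7 and 29.4 CPM in Y665F cells, and its log2 differences were -0.26, -0.31 and 0.05 for Y665F against WT, Y665H against WT and Y665F against Y665H. It was at 21.9, 15.3 and 24.7 CPM in Y665F cells without interleukin (log2 0.38 with against without). Without the Y665F library that stood apart, the differences of Y665F were -0.12 against WT, 0.19 against Y665H and 0.52 against no interleukin, none of them called. Il17f was counted 3, 15, 7 and 14 times in Y665F, 0, 0, 5 and 0 times in Y665H and 1, 12, 4 and 9 times in WT cells. Y665F against Y665H gave Il17f a log2 difference of 2.60 ± 1.01 that did not pass (adjusted p = 0.137). It was 2.14 (adjusted p = 0.283) without the Y665F library that stood apart, and leaving out 1 library in turn gave 2.14 to 6.61, since all Y665H reads lay in 1 library.

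Il22 reads were unevenly spread in Y665F cells. They came to 28, 3, 2 and 26 in the Y665F libraries, 5, 8, 15 and 6 in WT and 0, 1, 4 and 1 in Y665H libraries, with 7, 1 and 2 in Y665F cells without interleukin. The log2 difference was 2.16 ± 0.90 against Y665H (adjusted p = 0.167) and 1.78 ± 0.86 against no interleukin (adjusted p = 0.293). Without the Y665F library that stood apart they were 2.29 (adjusted p = 0.184) and 1.92 (adjusted p = 0.194), and leaving out 1 library in turn gave 1.3 to 3.17 against no interleukin. Il2 stayed at 0 to 9 reads in all 15 libraries, Il21 at 0 to 16 and Il17a at 0 to 13.

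For Y665F against WT, 4 of the 57 list genes tested were called higher, 7.02%, against 1.53% of all genes. These were 1 of 8 receptors for inducing cytokines, 1 of 9 IFN-gamma response genes and 2 of 16 regulators, namely Il12rb2, the signalling subunit of the IL-12 receptor (log2 1.86 ± 0.30, adjusted p = 0.00311), Gbp2, an IFN-gamma-induced GTPase (1.82, adjusted p = 0.00579), and the regulators Runx3 (1.21, adjusted p = 0.0367) and Rel (1.14, adjusted p = 0.0436). Without the Y665F library that stood apart, the calls of Runx3 (1.25, adjusted p = 0.0546) and Rel (0.88, adjusted p = 0.172) were lost and Eomes (1.10, adjusted p = 0.0479) was called. Against Y665H, 13 of 57 were called beside 4.78% of all genes. There 4 of 9 IFN-gamma response genes were called higher, Irf1, Gbp2, Gbp3 and Ciita, along with Tbx21 (1.87, adjusted p = 0.000823), Il12rb1 (1.66), Il2ra (2.03) and Il2rb (1.59), and Il6ra was lower (-1.14). Without that library the calls of Rel, Ciita and Il6ra were lost and Eomes and Cxcl10 were called higher, for 12 calls of which 10 were shared. With against without interleukins, where 2.97% of all genes were called, 7 of 9 IFN-gamma response genes were called higher, with a list median of 2.41 against -0.13 over all genes. Gbp2 (4.01), Cxcl10 (3.44) and Igtp (3.10) had the largest differences among them, and Il12rb2 (2.50) and Il2ra (2.35) were higher too. In that comparison, where culture may differ along with interleukins, 17 list genes were called with all libraries. Without the one that stood apart 18 were called, 16 of them shared. Y665H against WT gave 1 call in the lists, 1.75% beside 0.0717% of all genes. It was Lrrc32, which was lower (log2 -1.89, adjusted p = 0.0458).

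In spleens, 5 of the 7 cytokines had enough reads to be tested, of which Il21 separated Y665F from Y665H and Tgfb1 separated Y665F from both other genotypes. Il17a was counted 3 times and Il22 2 times over all 16 libraries, and both were left untested. By edgeR 0 of the 5 tested were called for Y665F against WT (1.20% of all genes called) and for Y665H against WT (4.37%), and 0 in DESeq2. At an unadjusted p under 0.05 there were 1 and 0, beside 5516 and 6391 of all 19418 genes tested. For Y665F against Y665H 1 of the 5 was called, against 5.28% of all genes.

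That gene was Il21. It was at 1.80, 1.32, 1.77, 1.96 and 1.71 CPM in Y665H and from 0.469 to 1.18 CPM, with a median of 0.688, in Y665F spleens. All 7 Y665F libraries lay below all 5 Y665H libraries, with a log2 difference of -1.13 ± 0.28 (2.19-fold lower, interval -1.72 to -0.54, adjusted p = 0.00645). WT spleens were spread over both, at 1.67, 0.684, 1.49 and 0.525 CPM. Against WT, Il21 differed by -0.48 in Y665F (adjusted p = 0.336) and by 0.65 ± 0.32 in Y665H spleens (adjusted p = 0.165), of which 4 of 5 lay above all WT spleens.

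Tgfb1 was higher in Y665F spleens than in both other genotypes, by less than the fold minimum. It ranged from 71.6 to 98.9 CPM in Y665F, with a median of 80.0, against 50.4, 60.2, 58.0 and 61.2 CPM in WT and 69.6, 64.5, 56.9, 60.2 and 59.2 CPM in Y665H spleens. All 7 Y665F libraries lay above all WT and Y665H libraries (log2 0.49 ± 0.09, adjusted p = 0.00234 against WT and 0.38 ± 0.08, adjusted p = 0.00288 against Y665H). Y665H and WT differed by 0.11 (adjusted p = 0.444). The Y665F libraries are shared by both comparisons.

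Ifng overlapped between all genotypes of spleen. It was at 1.59, 2.23, 1.52 and 0.758 CPM in WT, 0.930, 1.32, 1.26, 1.14 and 0.769 CPM in Y665H and 1.09 to 1.82 CPM in Y665F spleens. The log2 differences were -0.05 for Y665F and -0.47 for Y665H against WT and 0.42 for Y665F against Y665H, and none was called. Il2 was counted 4 to 20 times and Il17f 1 to 7 times per library.

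The make-up of the spleens differed beside these values. Summed T cell markers were 276 to 331 CPM in WT, 194 to 284 in Y665H and 373 to 533 CPM in Y665F spleens, the opposite order to Il21 and the same order as Tgfb1 for Y665F. NK markers were 56.6 to 75.5, 26.9 to 39.2 and 41.0 to 82.0 CPM, and B cell markers 1932 to 2169, 1423 to 2070 and 1539 to 1987 CPM in the same order. Erythroid markers summed to 494 to 919, 303 to 2291 and 206 to 666 CPM and neutrophil markers to 118 to 184, 51.0 to 795 and 160 to 419 CPM. Regulatory T cell markers summed to 108 to 123, 71.7 to 106 and 144 to 189 CPM, CD8 markers to 162 to 185, 76.4 to 108 and 199 to 304 CPM and those of megakaryocytes and platelets, which store TGF-beta1, to 133 to 213, 125 to 243 and 202 to 322 CPM. The part of these cell types in the results was not tested.

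**Figure D5:**
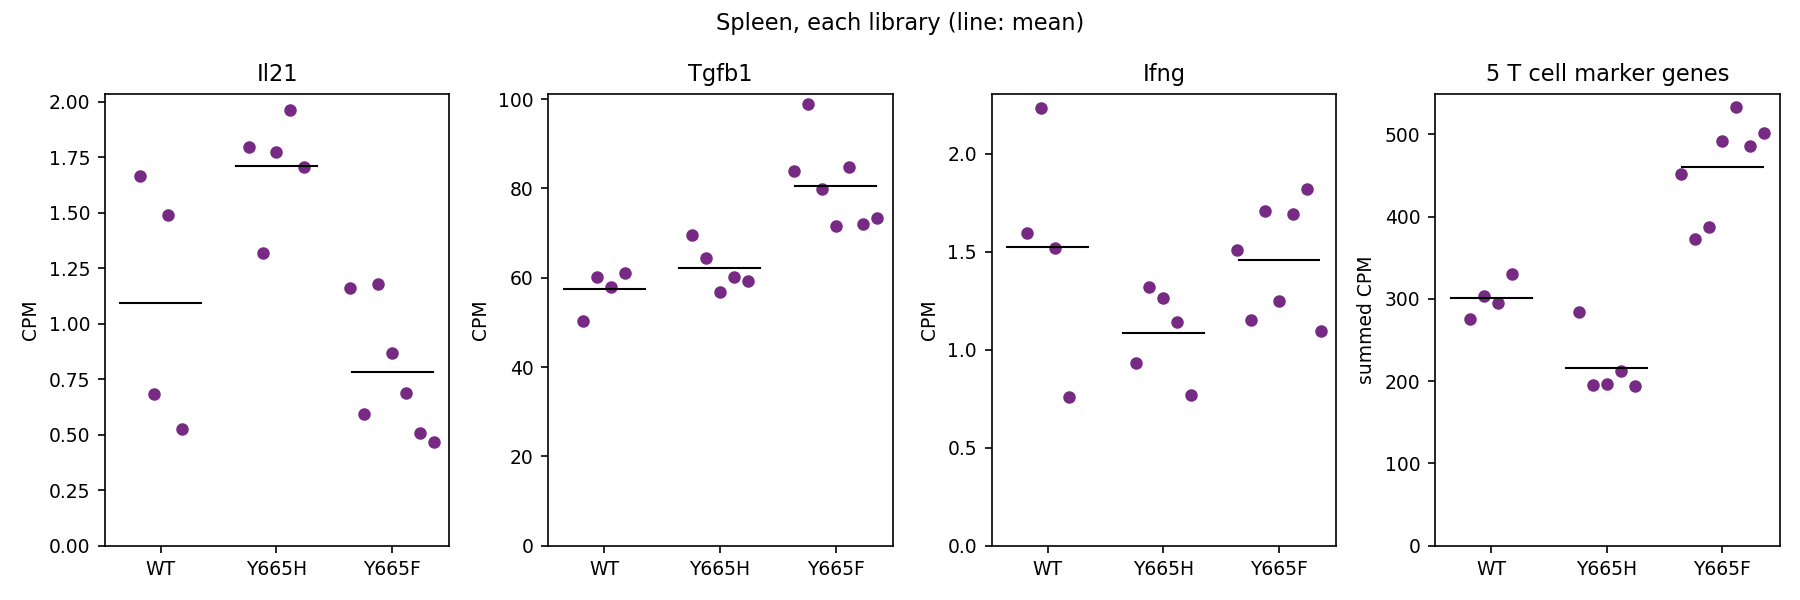
Levels of Il21, Tgfb1 and Ifng (CPM, y axes from 0) and the summed level of 5 T cell markers (CPM) in the 16 spleen libraries by genotype; each point is 1 library and bars are means. All 7 Y665F spleens lie below all 5 Y665H spleens for Il21 and above all other spleens for Tgfb1, and Ifng overlaps throughout.

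Of the 57 list genes tested in spleens, 1 was called for Y665F against WT, 1.75% beside 1.20% of all genes. For Y665H against WT 1 was called, 1.75% beside 4.37% of all genes, a share under that of all genes. For Y665F against Y665H 7 were called, 12.3% beside 5.28%. Il22ra2, the soluble IL-22 binding protein, was lower in Y665F than in WT spleens (log2 -1.12, adjusted p = 0.00154), and Il22ra1, the IL-22 receptor chain, was higher in Y665H than in WT spleens (1.44, adjusted p = 0.026). Y665F against Y665H gave 5 genes higher, namely Il2ra (1.64), Il2rb (1.42), Eomes (1.01), Il18r1 (1.44) and Socs1 (1.07), and both IL-22 receptor genes lower. None of the 9 IFN-gamma response genes was called against WT in either genotype.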

How the data were processed

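Total RNA was sequenced as stranded, ribosomal RNA-depleted libraries. The authors trimmed the reads (Trimmomatic 0.36, with FastQC 0.11.9), aligned them to mm10 with STAR and counted them on genes with HTSeq 0.9.1, and SAMtools 1.9 and Picard 2.9.2 are also named. The deposited files hold raw counts per gene. The closing lines for reads without a gene, 28.4 to 36.9% of reads in CD4+ T cells, 63.9 to 85.7% in splenic T cells and 62.8 to 69.4% in spleens, were left out. RUVSeq, which the authors name, was not used.

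Counts were analysed with edgeR 4.0.16 in R 4.3.3 (TMM scaling, glmQLFit and glmQLFTest, genes with at least 10 reads over the libraries of a fit). Fits were made for null cells, WT cells, both together (null against WT and interactions), splenic T cells and spleens, and p-values were adjusted by Benjamini-Hochberg over all genes of a fit. Standard errors are the log2 difference over the square root of F, and 95% intervals take the t distribution on edgeR's total degrees of freedom. Calls need an adjusted p under 0.05 and a log2 difference beyond 1. CPM and RPKM were computed from the deposited counts. Likeness used log2(CPM + 1) over genes whose mean reached 1 CPM. The named genes are the 7 members, the called genes of the 6 lists and, per member with enough reads, the 3 genes most like it. The members and lists were chosen with earlier results of these data known, and the lists support nothing on their own. Some called genes of the lists are not reported here.

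Replicate numbers were taken as pairs where deviations from group means of every same-numbered pair correlated above 0.1. Over genes that reached 1 CPM this held for 30 of 30 pairs in null and 30 of 30 in WT cells (18 and 21 over all tested genes), for 34 of 75 between null and WT cells, 6 of 21 in splenic T cells and 4 of 13 in spleens. The block is given beside results in null or WT cells alone.

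Alternatives were DESeq2 1.42.0, other size factors, another or no filter on low counts, the compared groups alone, the replicate block, no fold minimum and leaving out each library. The calls of the lists in splenic T cells were also made without the library that stood apart, which was chosen after seeing the data. The scripts were tested on simulated data with 200 changed genes. The 95% intervals take in the spread between libraries of a fit, whereas the floor of 3 reads covers counting error only.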

Additional observations from a re-analysis of the deposited data

Results flagged for a closer look

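Each cytokine was screened in each group of 4 to 7 libraries, which gave 40 combinations with reads. A lone library stood far from the others by Dixon's criterion, at its 5% level, in 7 of them, most on very few reads. That level does not hold where only 1 library had reads, since the criterion is then always met. Il17a in Y665F spleens was at 0.0580 CPM in replicate 1 with a median of 0, and in Y665H spleens at 0.0293 CPM in replicate 4 with a median of 0. Il22 was at 0.0396 CPM in replicate 2 of the Y665F spleens and at 0.0244 CPM in replicate 2 of the Y665H spleens, again with medians of 0. Il17f was lowest in replicate 4 of the WT spleens, at 0.0291 CPM with a median of 0.110, and in Y665H splenic T cells it was detected in replicate 3 alone, at 0.348 CPM. Il22 in WT splenic T cells was highest in replicate 3, at 0.618 CPM with a median of 0.409. These are single samples, and none of them carries a call.

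The response of Il17f to N642H differed between hosts in direction, with every null library below and every WT library above its own libraries with the empty vector. The interaction was -2.42 on the log2 scale (unadjusted p under 0.05, adjusted p = 0.276 in edgeR), so that the difference did not pass after adjustment.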

How the results depend on the processing

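Of 71 log2 differences given for single cytokines, 40 kept their direction and side of the threshold under all alternatives and 31 changed under at least 1, and 119 group means of CPM moved by less than 1 SD with library totals in place of TMM. The count of cytokines called became 1 without a fold minimum for N642H and Y665F against the empty vector in null cells and for Y665F against WT spleens, and 2 for Y665F against Y665H spleens, through Tgfb1. With the replicate block it became 1 for N642H against the empty vector, Y665H against STAT5B and Y665F against Y665H in null cells, 2 for N642H and 1 for Y665F against the empty vector in WT cells and 0 for Y665F against Y665H spleens (Il21 -0.98), where the numbers did not pair. Between null and WT cells it was 3 with the block (Il2 1.36, adjusted p = 0.00464, though the numbers did not pair) and 3 without a fold minimum (Tgfb1), 4 in a fit of both groups alone (Il21 adjusted p = 0.0426, Il2 0.047) and 2 under the others. DESeq2 called 1 for N642H in WT cells. Leaving out 1 library gave 0 to 1 calls for N642H and for Y665F in WT cells, for null cells with STAT5B against WT cells and for the interaction of Y665F. Differences near 0 turned. Il2 with Y665F in null cells was 0.007 with RLE factors, 0.013 in DESeq2 and 0.02 in the groups alone, Tgfb1 between null cells with STAT5B and WT cells was -0.004 with RLE factors and in DESeq2 and -0.003 in the groups alone, and Ifng in Y665F against WT spleens was 0.021 with the block. Without 1 library, Il2 against the empty vector spanned -1.01 to 0.24 with STAT5B, -0.63 to 0.31 with N642H and -0.61 to 0.45 with Y665F in null cells, and -0.74 to 0.70, -0.86 to 1.09, -0.39 to 0.98 and -0.63 to 0.69 with STAT5B, N642H, Y665F and Y665H in WT cells. Ifng spanned -0.64 to 0.91 with Y665F and -0.33 to 0.50 with Y665H in null cells, 1.65 to 2.45, 1.42 to 2.06 and -0.18 to 0.42 with N642H, Y665F and Y665H in WT cells, 3.61 to 4.36 for null cells with STAT5B against WT and -0.28 to 0.20 for Y665F against WT spleens. Tgfb1 spanned -0.27 to 0.025 with STAT5B and -0.037 to 0.24 with Y665H in WT cells, -0.17 to 0.16 for null cells with STAT5B against WT, 0.77 to 1.25 for the interaction of Y665F and -0.025 to 0.19 for Y665F against Y665H splenic T cells. The block changed no call beyond those named here. The causes were not tested. Depth limits Il17a, Il22 and, in splenic T cells, every member but Ifng and Tgfb1.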
